A study of Mus musculus with 10 samples.

Results

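The C-type lectin receptor genes described here were the genes whose symbols begin with Clec and a digit. 32 of the 24538 genes in the count files matched, and their RNA levels were compared between metastasis-associated macrophages (MAMs) and resident alveolar macrophages (RAMs). Of the 32, 18 passed the filter on low values that left 11571 genes to be tested.

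RNA-seq was carried out on macrophages sorted from mouse lung, with 5 libraries per group. All mice were wild type C57BL6/J aged 8 to 10 weeks. MAMs came from lung metastases of females injected through the tail vein, at 6 to 8 weeks of age, with E0771-LG, a mouse mammary tumor line of the same strain background that seeds the lung. Metastases under 1 mm were dissected and pooled from 2 to 4 mice. RAMs came from normal lungs of mice that received no tumor cells, and the labels do not give their sex. Both groups were sorted as CD45+ F4/80+ LY6C- MRC1+ cells with high forward scatter, MAMs as CD11B+ CD11C- and RAMs as CD11B- CD11C+. The digestion buffer of both held the transcription inhibitors alpha-amanitin and actinomycin D. The sorted cell type and the state of the tissue changed together between the groups, so their parts in a difference cannot be told apart. In bulk libraries, fewer cells of a type and less RNA per cell cannot be told apart either. By the paper's methods, a sample was either a single mouse or a pool of metastases, so libraries need not stand for equal numbers of mice. The labels do not say whether every library came from other mice, so the p-values measure the spread between these libraries.

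C-type lectin receptors carry a fold that binds carbohydrates, lipids or proteins, and macrophages and dendritic cells use them to sense fungi, mycobacteria, dead cells and other cells. Activating members signal through the tyrosine kinase SYK, either by a tyrosine motif of their own tail or through the adaptors FcRγ (Fcer1g) and DAP12 (Tyrobp), while inhibitory members recruit phosphatases such as SHP-1 (Ptpn6). Alveolar macrophages are known for dectin-1 (Clec7a), the receptor for fungal beta-glucan. In the mouse, most of these genes lie in clusters on chromosome 6.

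The promoters of 5 members are shown. The neighbors Clec4d and Clec4e were higher in MAMs, the neighbors Clec1b and Clec9a were lower, and Clec4a1 had the largest difference. Sequences are from RefSeq on GRCm38.p6, each with 250 bases before and 50 after the start of the gene, in the direction of transcription. They lie at chr6:122921598-122921897 (Clec4a1, plus strand), chr6:123261857-123262156 (Clec4d, plus strand), chr6:123289822-123290121 (Clec4e, minus strand), chr6:129397047-129397346 (Clec1b, plus strand) and chr6:129408612-129408911 (Clec9a, plus strand). Capitals mark the matches to the motifs named after the sequences.
Clec4a1: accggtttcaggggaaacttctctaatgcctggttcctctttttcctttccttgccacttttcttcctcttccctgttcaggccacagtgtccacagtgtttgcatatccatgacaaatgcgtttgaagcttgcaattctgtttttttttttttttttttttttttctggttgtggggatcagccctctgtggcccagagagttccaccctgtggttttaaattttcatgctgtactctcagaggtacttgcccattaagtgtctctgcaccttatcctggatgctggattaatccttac
Clec4d: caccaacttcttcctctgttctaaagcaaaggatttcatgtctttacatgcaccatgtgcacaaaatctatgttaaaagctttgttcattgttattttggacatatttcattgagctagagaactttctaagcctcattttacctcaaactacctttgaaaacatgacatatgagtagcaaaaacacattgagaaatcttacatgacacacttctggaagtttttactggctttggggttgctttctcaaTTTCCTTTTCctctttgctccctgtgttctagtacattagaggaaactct
Clec4e: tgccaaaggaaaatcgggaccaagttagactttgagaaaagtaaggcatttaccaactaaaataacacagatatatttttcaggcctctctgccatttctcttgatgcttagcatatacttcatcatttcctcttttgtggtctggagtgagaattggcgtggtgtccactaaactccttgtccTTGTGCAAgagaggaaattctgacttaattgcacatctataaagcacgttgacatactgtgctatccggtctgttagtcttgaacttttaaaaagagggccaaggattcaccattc
Clec1b: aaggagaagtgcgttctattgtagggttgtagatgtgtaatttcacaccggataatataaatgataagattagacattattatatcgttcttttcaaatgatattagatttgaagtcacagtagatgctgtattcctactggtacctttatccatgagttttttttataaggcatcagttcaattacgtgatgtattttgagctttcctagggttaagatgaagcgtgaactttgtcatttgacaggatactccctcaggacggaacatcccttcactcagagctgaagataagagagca
Clec9a: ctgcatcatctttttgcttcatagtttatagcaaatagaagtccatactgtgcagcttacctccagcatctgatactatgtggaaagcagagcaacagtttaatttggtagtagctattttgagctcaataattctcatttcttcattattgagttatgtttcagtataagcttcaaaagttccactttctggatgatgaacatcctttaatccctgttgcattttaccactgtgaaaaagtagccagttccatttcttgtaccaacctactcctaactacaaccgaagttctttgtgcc

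5 motifs were searched on both strands of the 28 promoter entries of 25 members, since 7 members had no entry. The interferon-type motif GAAANNGAAA was in 3 of the 28 entries (Clec4b1, Clec4d and Clec2d) and in 3.44% of all 32851 promoters of this length. The C/EBP-type motif TTGCNNAA was in 6 entries, Clec4e among them, and in 10.8% of all. The AP-1 motif TGANTCA was in 6 entries and in 7.81% of all. Neither the PU.1 core GAGGAAGT, held by 3.20% of all promoters, nor the E-box CACGTG, held by 7.15%, was found in a member's entry. The capitals mark 1 interferon-type match in Clec4d and 1 C/EBP-type match in Clec4e, and no match overlapped another.

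The libraries held 50746305 to 87523247 counts on genes. As a check of the labels, 11 of 12 alveolar macrophage markers were called lower in MAMs, with a summed level of 451 to 847 CPM (counts scaled to 1e6 per library) in MAMs and 11880 to 14690 CPM in RAMs. All 8 markers of monocyte-derived macrophages were called higher in MAMs, at 12420 to 14320 CPM against 154 to 171 CPM. Of all genes tested, 15.1% were called lower and 15.3% higher. Itgax (CD11C) was on the alveolar list and Itgam (CD11B) on the other, so their values are part of the gate. Both lists were chosen with earlier results of these data known. With counts scaled to library totals alone, the 86 genes above 1000 CPM in MAMs had in RAMs at least 1.06% of their MAM level, and the 65 genes above 1000 CPM in RAMs had in MAMs at least 0.992% of their RAM level. Large differences are given with that floor of abundant genes, whose origin was not tested. It is not a limit for other genes, since log2 fold changes over all tested genes ran from -9.19 to 9.16.

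Among the 18 tested members, 16 differed between MAMs and RAMs with an adjusted p below 0.05, 10 of them higher and 6 lower in MAMs. The test was the quasi-likelihood test of edgeR, with p-values adjusted by Benjamini-Hochberg over all tested genes. Of all 11571 genes tested, 56.2% did so, 3344 of them higher and 3160 lower in MAMs. A gene was called when it also differed by at least 2-fold. 11 members were called, against 30.3% of all genes, 7 of them higher (15.3% of all genes) and 4 lower (15.1% of all genes). The groups did not overlap for 13 members, and for 44.9% of all genes. The median log2 fold change of the tested members was 0.36, and that of all genes was -0.02. A member could pass the filter through the group in which it was high. The 14 members below it are described at the end.

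**Figure D1:**
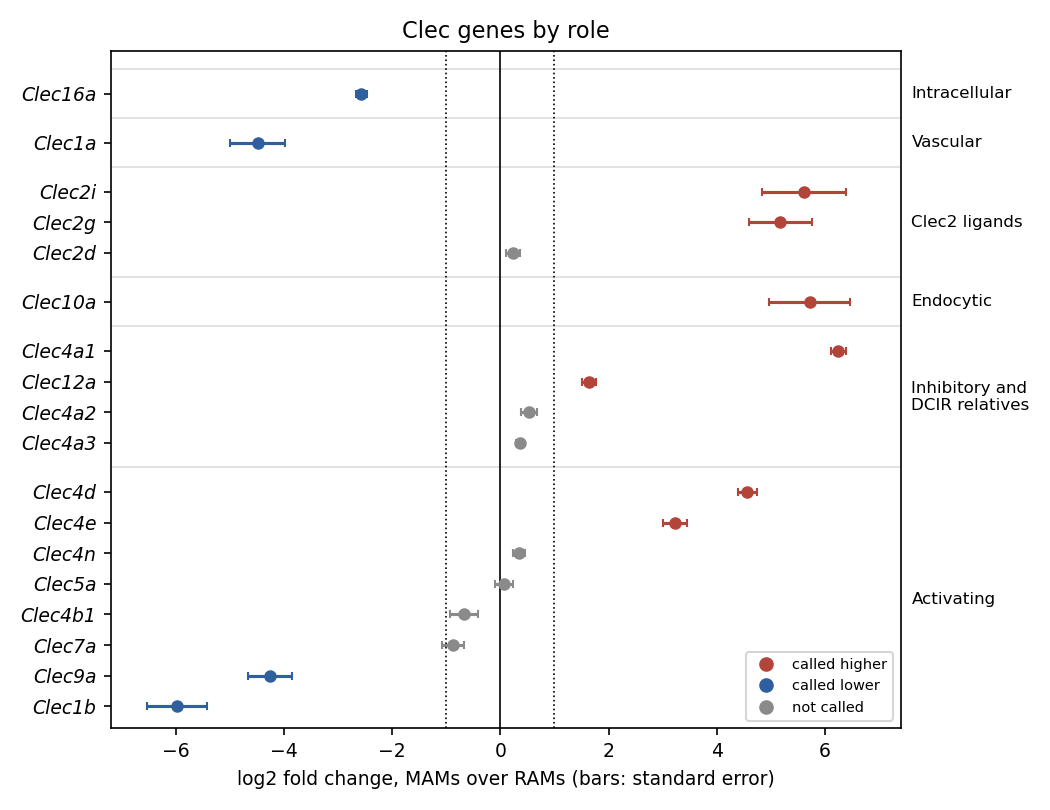
Log2 fold change of MAMs over RAMs for the 18 tested members, grouped by role, with bars for the standard error from 5 libraries a group and dotted lines at 2-fold. The 7 genes called higher run from 1.64 for Clec12a to 6.25 for Clec4a1, and the 4 called lower from -2.57 for Clec16a to -5.98 for Clec1b.

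The activating receptors had members at both ends of the range. Of 9 listed, 8 were tested, 2 were called higher in MAMs and 2 lower, where 15.3% and 15.1% of all genes were. Clec4d and Clec4e, which encode MCL and Mincle, receptors for mycobacterial glycolipid that pair with FcRγ, lie side by side at chr6:123262111-123275265 and chr6:123281789-123289870. Clec4d was at 471, 473, 423, 377 and 413 CPM in MAMs 1 to 5 and at 16.0, 12.3, 16.6, 27.1 and 19.1 CPM in RAMs 1 to 5. Every MAM library was more than 10-fold above every RAM library. For Clec4d, the log2 fold change was 4.57 ± 0.18 (SE, adjusted p = 1.4e-11 by edgeR's test). Clec4e, with 260, 229, 213, 125 and 149 CPM in MAMs and 21.2, 14.7, 18.2, 27.8 and 22.3 CPM in RAMs, was also separate in the groups, with a wider spread among MAMs. Its log2 fold change was 3.23 ± 0.21 (SE, adjusted p = 4.7e-09 by edgeR's test). The RAM level was 4.90% of the MAM level for Clec4d and 12.4% for Clec4e on library totals, above the floor of 1.06%. Neutrophils also express both genes. The neutrophil marker list summed to 124 to 312 CPM in MAMs and 140 to 204 CPM in RAMs, so that these ranges overlapped. Of its 9 genes, 6 had a higher mean in MAMs, and of the 5 tested, 3 were called higher in MAMs (S100a8, S100a9 and Csf3r) and 1 lower (Cxcr2). S100a9 was at 3.88 CPM in MAMs and 0.350 CPM in RAMs, Csf3r at 146 and 68.4 CPM, and Ly6g at 0.368 and 0 CPM. The part of these markers in the rise of Clec4d and Clec4e was not tested.

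Clec1b and Clec9a, the activating receptors with the opposite direction, lie next to each other at chr6:129397297-129409335 and chr6:129408862-129424763. Clec1b encodes CLEC-2, the podoplanin receptor best known from platelets. It was at 0.508, 0.169, 0.246, 0.525 and 0.0431 CPM in MAMs, from 3 to 29 counts, and at 15.1, 10.3, 13.1, 27.1 and 27.6 CPM in RAMs, from 634 to 1301 counts. Each RAM library was above each MAM library, and the log2 fold change was -5.98 ± 0.56 (SE, adjusted p = 2.5e-07 by edgeR's test). The MAM level was 1.38% of the RAM level on library totals, where the lowest share among genes abundant in RAMs was 0.992%. Of 8 platelet markers, 4 had a higher mean in MAMs, and of the 2 tested, Ppbp was called higher and Gp9 had a log2 fold change of -0.13. Their sum was 78.2 to 259 CPM in MAMs and 8.42 to 13.02 CPM in RAMs. Ppbp, at a mean of 148 CPM, made up most of it in MAMs, while Gp6 and Gp1bb were at 0 in every RAM library.

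Clec9a encodes DNGR-1, a receptor of dendritic cells for actin filaments of dead cells. Its level was 1.71, 1.41, 0.335, 1.01 and 0.603 CPM in MAMs and 16.4, 20.7, 12.9, 22.8 and 24.2 CPM in RAMs, again with no overlap. This was a log2 fold change of -4.26 ± 0.40 (SE, adjusted p = 2.9e-07 by edgeR's test). The MAM level was 4.48% of the RAM level on library totals. In RAMs, the dendritic cell genes Flt3 and Xcr1 had means of 0.0331 and 0.455 CPM. The list of 9 dendritic cell markers summed to 481 to 573 CPM in RAMs and 227 to 252 CPM in MAMs, nearly all of it Wdfy4, with a mean of 509 CPM in RAMs. Of the 4 tested, Wdfy4 and Snx22 were called lower in MAMs, the direction of Clec9a, and Ccr7 and Batf3 higher. Snx22 was at 0.674 CPM in MAMs and 4.34 CPM in RAMs, and the part of these markers in the difference of Clec9a was not tested. The exons of Clec1b and Clec9a overlap on the same strand and 4.19% of the 50-base stretches of Clec9a also occur in Clec1b, so reads of the shared stretch cannot be assigned to 1 of them.

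Clec7a (dectin-1, chr6:129461591-129472779) had the highest FPKM (fragments scaled to transcript length and library size) of all members in RAMs. It was at 545, 404, 289, 194 and 329 CPM in MAMs and at 666, 561, 576, 733 and 694 CPM in RAMs. The lowest RAM library stood just above the highest MAM library. The log2 fold change was -0.88 ± 0.20 (SE, adjusted p = 0.0016 by edgeR's test), short of 2-fold. It passed 2-fold without MAM replicate 1, with a log2 fold change of -1.09. The reference annotation lists Clec7a as a polymorphic pseudogene, a class for genes that are intact in some strains. What this class means for the strain used here was not examined.

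Clec4n encodes dectin-2, a receptor for fungal mannans that pairs with FcRγ, and lies at chr6:123229843-123247021. It was at 293, 300, 260, 283 and 354 CPM in MAMs and at 248, 209, 184, 261 and 269 CPM in RAMs. The groups overlapped, with RAM libraries 4 and 5 above the lowest MAM library. The log2 fold change of 0.35 ± 0.11 (SE, adjusted p = 0.015 by edgeR's test) no longer passed with upper-quartile normalization, which gave 0.18 and an adjusted p of 0.165. Clec4b1, which encodes DCAR, another partner of FcRγ, had 9.59 ± 3.43 CPM in MAMs and 15.4 ± 2.88 CPM in RAMs (SD, n = 5 each). The adjusted p was 0.035 by edgeR's test, and it rose above 0.05 when any of 6 libraries was left out (MAM 2, 3 or 4, or RAM 1, 3 or 5). Clec4b1 shares 9.73% of its 50-base stretches with Clec4a2. Clec5a, which encodes the DAP12-coupled receptor MDL-1, had 36.8 ± 3.55 CPM in MAMs and 35.1 ± 9.06 CPM in RAMs (SD, n = 5 each), and the 95% interval of its log2 fold change ran from -0.26 to 0.39.

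Among the inhibitory receptors and their DCIR relatives, 4 of 6 members were tested. All 4 had a higher level in MAMs at an adjusted p under 0.05, with 2 called. Of all genes tested, 56.2% passed that limit in either direction, 3344 of 11571 passed it as higher in MAMs, and 15.3% were called higher. Clec4a1 (chr6:122921848-122934619), a relative of the inhibitory receptor DCIR, showed the largest rise of all members. It was at 210, 250, 293, 306 and 272 CPM in MAMs and at 4.23, 3.66, 3.38, 2.88 and 3.30 CPM in RAMs. All MAM libraries lay far above all RAM libraries. For Clec4a1, the log2 fold change was 6.25 ± 0.14 (SE, adjusted p = 3.1e-14 by edgeR's test). The RAM level was 1.52% of the MAM level on library totals, close to the floor of 1.06%, so Clec4a1 was near the largest difference that abundant genes of MAMs showed.

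Clec12a (chr6:129342691-129365303) encodes MICL, which carries an inhibitory tyrosine motif and dampens responses to crystals of uric acid. It was at 120, 110, 103, 122 and 125 CPM in MAMs and at 38.4, 35.3, 29.9, 33.6 and 49.1 CPM in RAMs. The groups were separate, and the RAM level was 37.2% of the MAM level on library totals. This was a log2 fold change of 1.64 ± 0.13 (SE, adjusted p = 3.0e-08 by edgeR's test).

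Clec4a3 and Clec4a2 were higher in MAMs by less than 2-fold. Clec4a3 (chr6:122952515-122969875) was at 148, 165, 152, 147 and 145 CPM in MAMs and at 127, 118, 114, 119 and 110 CPM in RAMs. All MAM libraries were above all RAM libraries, by a small margin. The log2 fold change was 0.37 ± 0.07 (SE, adjusted p = 5.6e-04 by edgeR's test). Clec4a2, which encodes DCIR itself, had 52.8 ± 6.72 CPM in MAMs and 36.7 ± 7.96 CPM in RAMs (SD, n = 5 each), with a log2 fold change of 0.52 (adjusted p = 0.0070 by edgeR's test) and with RAM replicate 1 inside the MAM range. With upper-quartile normalization, the adjusted p of Clec4a2 was 0.04997 by edgeR's test, just under the limit. Clec4a2 shares 8.36% of its 50-base stretches with other genes, mostly Clec4a4 and Clec4b1.

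**Figure D2:**
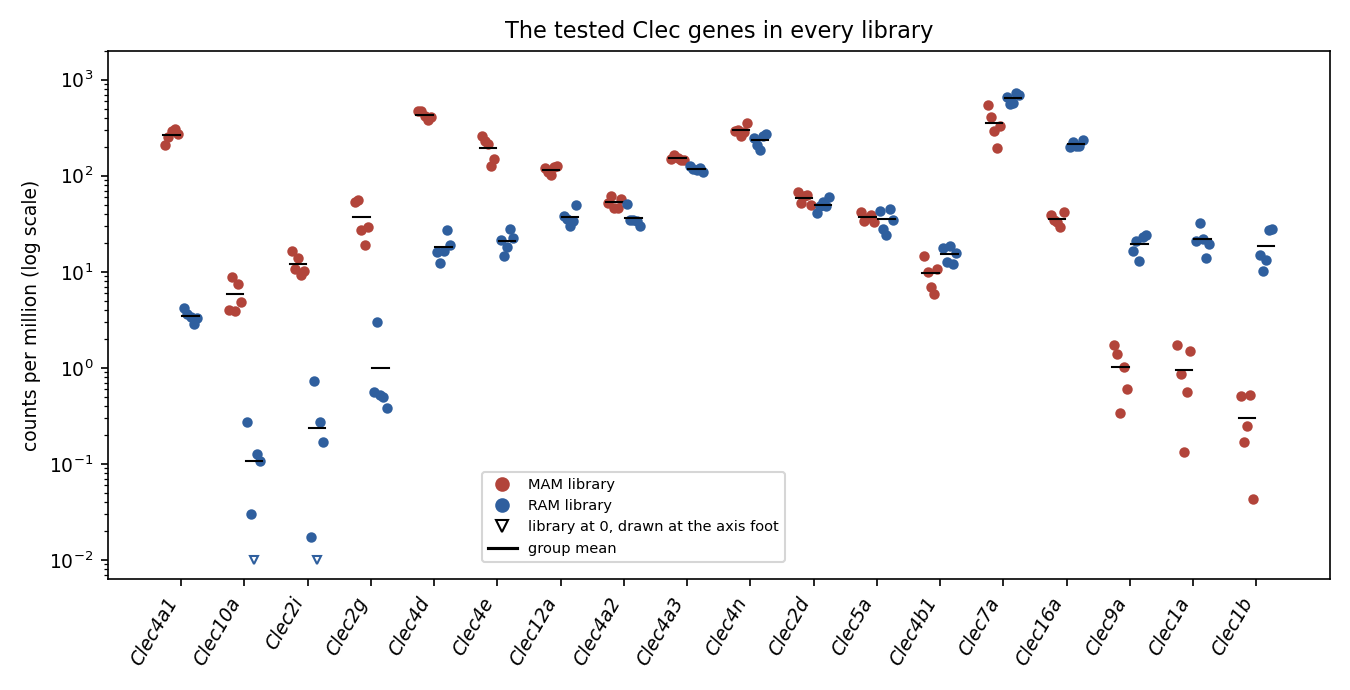
CPM on a log axis for the 18 tested members in each of the 5 MAM and 5 RAM libraries, ordered by fold change, with black lines for the group means and open triangles for libraries at 0. Clec4a1 at the left was at 210 to 306 CPM in MAMs and 2.88 to 4.23 CPM in RAMs, and Clec1b at the right was under 1 CPM in MAMs and at 10.3 to 27.6 CPM in RAMs.

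Of the endocytic receptors, Clec10a was tested. Clec10a (chr11:70156197-70170834) encodes MGL1, which binds galactose and N-acetylgalactosamine on glycoproteins. It was at 4.03, 8.72, 3.91, 7.45 and 4.88 CPM in MAMs and at 0.274, 0.0300, 0, 0.125 and 0.107 CPM in RAMs, where it had 0 to 16 counts. The groups did not overlap, at low levels in both. For Clec10a, the log2 fold change was 5.72 ± 0.75 (SE, adjusted p = 1.0e-05 by edgeR's test) and 6.45 without RAM replicate 1. The RAM level was 2.16% of the MAM level on library totals. Clec10a shares 10.6% of its 50-base stretches with its paralog Mgl2, which was at 8.64 CPM in MAMs and 0.297 CPM in RAMs (log2 fold change 4.87, adjusted p = 1.8e-04 by edgeR's test).

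The Clec2 genes include ligands of NK cell receptors, and the reference annotation lists Clec2f as a pseudogene. Of 7 Clec2 genes in the files, 3 were tested, and Clec2g and Clec2i were called higher, as were 15.3% of all genes. Clec2g (chr6:128934381-128984707) was at 53.6, 56.0, 27.4, 19.1 and 29.3 CPM in MAMs and at 0.565, 3.03, 0.518, 0.501 and 0.384 CPM in RAMs. RAM replicate 2 stood apart from the other RAM libraries, and its 3.03 CPM had no match in the deposited FPKM, which was 0.0890 in that library and 0.136 to 0.184 in the others. For Clec2g, the log2 fold change was 5.17 ± 0.58 (SE, adjusted p = 2.0e-06 by edgeR's test) and 6.22 without RAM replicate 2. Clec2i (chr6:128887588-128898167) was at 16.4, 10.6, 13.9, 9.17 and 10.1 CPM in MAMs and at 0.0171, 0.721, 0, 0.271 and 0.171 CPM in RAMs, from 0 to 48 counts. Here too RAM replicate 2 was the highest of its group. The log2 fold change was 5.62 ± 0.78 (SE, adjusted p = 1.7e-05 by edgeR's test) and 6.71 without RAM replicate 2. The RAM levels were 3.15% (Clec2g) and 2.27% (Clec2i) of the MAM levels on library totals. Both genes have exons that overlap genes of the opposite strand. For Clec2i this is BC035044, at a mean of 0.524 CPM in MAMs and 0 in RAMs, and for Clec2g it is the antisense gene Gm15987. Strand use in the counting is not given in the sources used here, so their reads cannot be told apart.

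Clec2d encodes Clr-b, the ligand by which healthy cells engage an inhibitory NK cell receptor. Its level was 58.8 ± 7.45 CPM in MAMs and 50.1 ± 7.29 CPM in RAMs (SD, n = 5 each). The groups overlapped, the adjusted p was 0.132 by edgeR's test, and the 95% interval of the log2 fold change ran from -0.01 to 0.48. The NK cell markers Ncr1, Klrb1c, Gzma, Klre1 and Eomes had group means under 1 CPM in both groups. The sixth, Prf1, was called lower in MAMs, at 0.287 CPM against 11.3 CPM in RAMs, and made up most of the list's sum of 10.2 to 12.98 CPM in RAMs.

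Clec1a (chr6:129424772-129452000) encodes MelLec, a receptor for fungal melanin that is known from endothelial and myeloid cells. It was at 1.73, 0.862, 0.134, 0.561 and 1.51 CPM in MAMs and at 20.9, 32.5, 21.9, 13.8 and 19.5 CPM in RAMs. All RAM libraries were above all MAM libraries, and the MAM libraries spread by 12.9-fold from lowest to highest. For Clec1a, the log2 fold change was -4.49 ± 0.50 (SE, adjusted p = 1.8e-06 by edgeR's test). The MAM level was 3.76% of the RAM level on library totals. Of 8 endothelial markers, 3 had a higher mean in MAMs, and the 2 tested, Kdr and Cdh5, were called higher there. The list summed to 18.3 to 62.4 CPM in MAMs, mostly Kdr at a mean of 29.0 CPM, and to 2.92 to 10.5 CPM in RAMs. Cldn5 and Emcn were under 1 CPM in both groups.

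Clec16a (chr16:10545339-10744878) encodes an intracellular protein of endosomes and mitophagy and stands apart from the receptors in function. It was at 39.3, 34.4, 33.3, 29.5 and 41.5 CPM in MAMs and at 199, 222, 203, 204 and 233 CPM in RAMs. Each group was tight and the groups were far apart. This was a log2 fold change of -2.57 ± 0.10 (SE, adjusted p = 1.5e-11 by edgeR's test).

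Levels of different members were compared by the deposited FPKM, which accounts for length. The FPKM summed over the members was 1168 ± 87.7 in MAMs and 694 ± 56.7 in RAMs (SD, n = 5 each), and the groups did not overlap. In MAMs, Clec4d led at 283 ± 29.7 FPKM, or 24.2% of the sum, followed by Clec4n at 236 ± 27.6 FPKM and Clec4a1 at 167 ± 26.7 FPKM. The lead of Clec4d over Clec4n was within the sum of their SDs. In RAMs, Clec7a led at 249 ± 27.7 FPKM, or 35.8% of the sum, followed by Clec4n at 174 ± 21.3 FPKM and Clec4a3 at 89.0 ± 4.01 FPKM. These RAM levels were separated by more than their SDs. Clec7a made up 11.4% of the sum in MAMs, and Clec4d made up 1.22% in RAMs. Clec4n held a large share in both groups, with 20.3% in MAMs and 25.1% in RAMs.

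**Figure D3:**
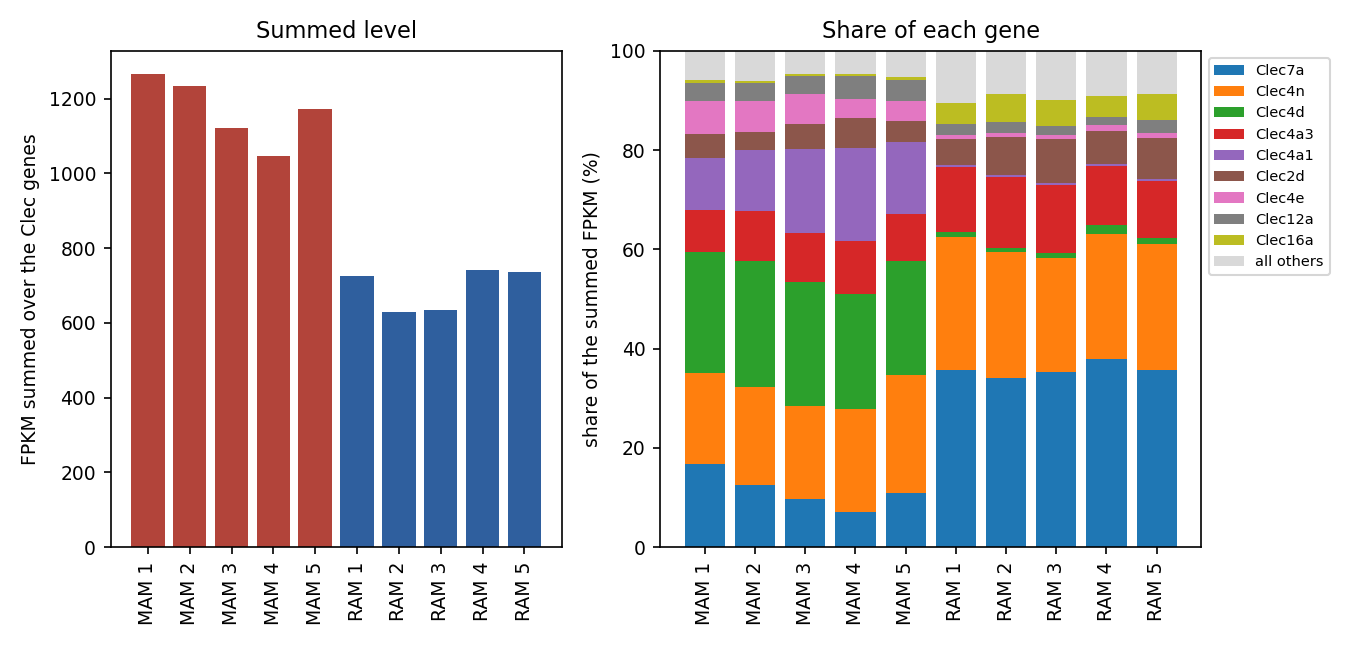
Left, FPKM summed over the Clec genes in each library, and right, the percentage of that sum held by each of 9 members and by all others, for MAM and RAM replicates 1 to 5. MAM libraries summed to 1046 to 1265 FPKM and RAM libraries to 628 to 741 FPKM, and Clec4d and Clec4a1 filled a large part in MAMs where Clec7a did in RAMs.

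By position, most members fell into 3 groups on chromosome 6, which were drawn up after the values were seen. The shares called over all genes were 15.3% higher and 15.1% lower. In the group from Clec4a1 to Clec4e (chr6:122921848-123289870), 7 of 9 members were tested, 3 were called higher and 0 lower. The genes called were those at the ends of the row, Clec4a1 at one and Clec4d and Clec4e at the other. In the group from Clec2h to Clec2d (chr6:128662385-129186534), 3 of 6 were tested and the neighbors Clec2i and Clec2g were called higher. In the group from Clec12a to Clec7a (chr6:129342691-129472779), which spans 130.1 kb, 5 of 6 were tested. There Clec12a was called higher, the adjacent genes Clec1b, Clec9a and Clec1a were called lower, and Clec7a was lower by less than 2-fold.

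**Figure D4:**
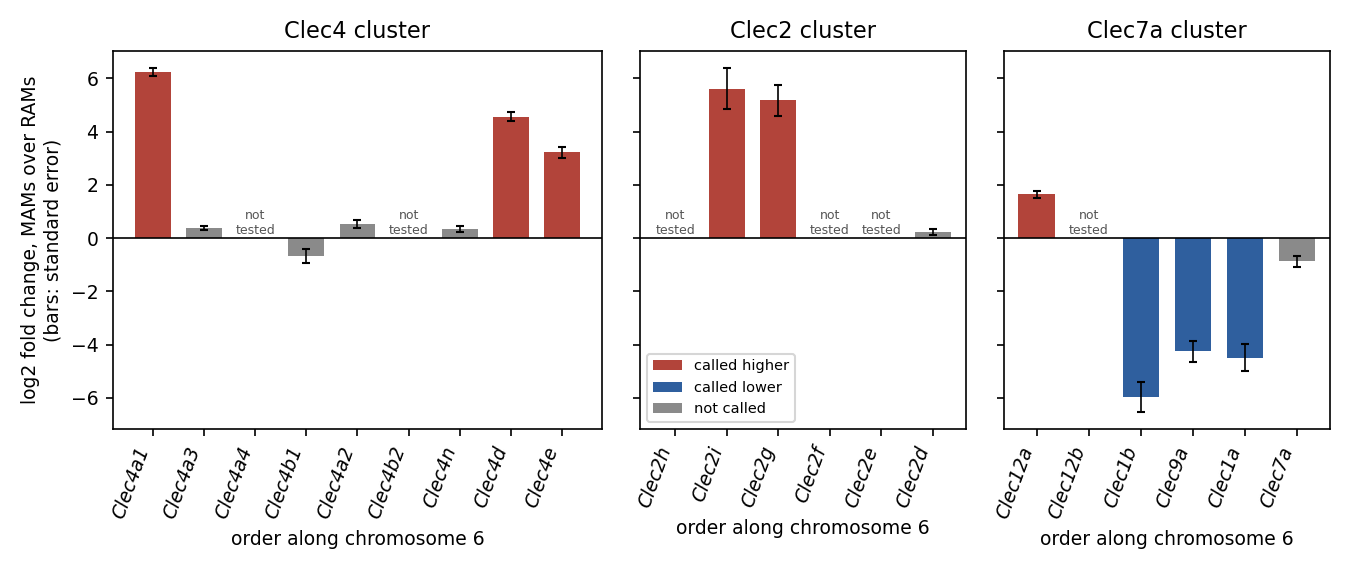
Log2 fold change of MAMs over RAMs (bars, with standard errors) for members in their order along chromosome 6, in 3 groups. Changes within a group ran from -0.68 to 6.25 around the Clec4 genes and from -5.98 to 1.64 around Clec7a.

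Among the MAM libraries, some members shared an order and others did not. MAM replicate 1 held the highest value of the group for 8 of the 18 tested members, and replicate 4 the lowest for 7. The same counts were not taken over all tested genes, so it cannot be told whether they are particular to the members. Clec7a, Clec4e, Clec2g and Clec4b1 were lowest in replicate 4, by 2.81-fold, 2.07-fold, 2.94-fold and 2.51-fold below their highest MAM library. Clec2i, Clec16a and Clec4d were also lowest there, by 1.793-fold, 1.407-fold and 1.255-fold. Clec4a1 ran the other way, lowest in replicate 1 and highest in replicate 4, by 1.46-fold. The summed alveolar macrophage markers were 847, 713, 589, 451 and 500 CPM in MAMs 1 to 5, so their order over the libraries was that of Clec4e. The endothelial marker sum was lowest in replicate 1, at 18.3 CPM, and highest in replicate 4, at 62.4 CPM. The part of these marker levels in the spread of the members was not tested. Among RAMs, Clec7a varied by 1.31-fold, Clec4a3 by 1.15-fold and Clec16a by 1.17-fold, while Clec1b varied by 2.68-fold.

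**Figure D5:**
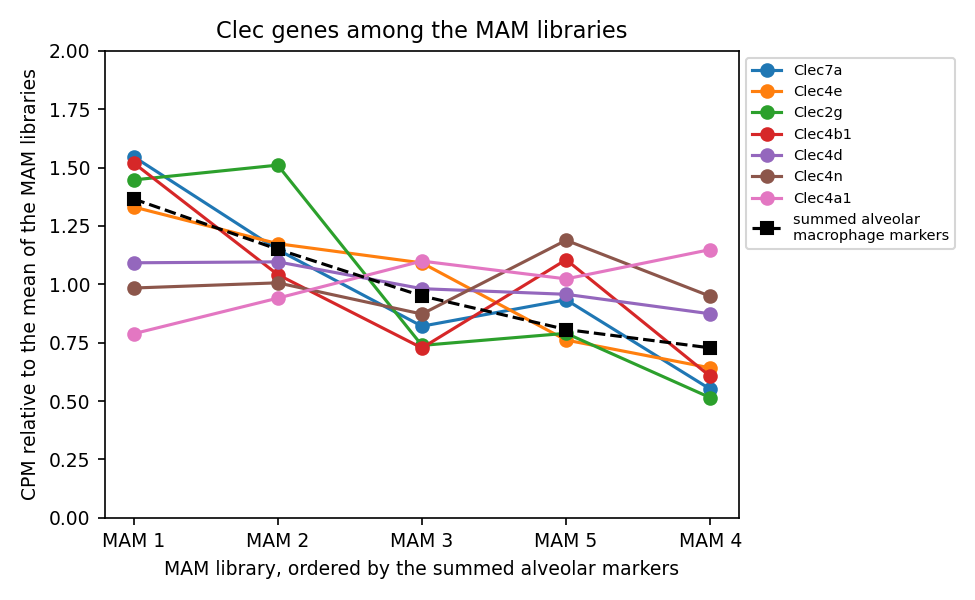
Level of 7 members and of the summed alveolar macrophage markers (dashed) in each MAM library, as CPM relative to the mean of the 5 MAM libraries, with libraries ordered by the marker sum and lines that only join the points. Clec7a, Clec4e, Clec2g, Clec4b1 and Clec4d were lowest in MAM 4, where Clec4a1 was highest.

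The genes through which these receptors signal had counts in every library of both groups. Src, Nfatc2 and Blnk were under 1 FPKM in RAMs, with means of 0.281, 0.690 and 0.729 FPKM, and passed the filter through MAMs. Of 37 genes for adaptors, kinases, phosphatases and their partners, all were tested and 31 passed an adjusted p under 0.05 (56.2% of all genes did). 11 were called, 9 higher and 2 lower, where 30.3% of all genes were called, so the share called was near that of all genes. Their median log2 fold change was 0.43 (median of all genes -0.02). Fcer1g, the adaptor of Clec4d, Clec4e and Clec4n, was at 1802 ± 82.8 CPM in MAMs and 914 ± 70.2 CPM in RAMs (SD, n = 5 each), a log2 fold change of 0.98 with an adjusted p of 6.9e-09 by edgeR's test. Tyrobp and Syk differed little, with log2 fold changes of 0.23 and -0.21 (adjusted p = 0.026 and 0.0081 by edgeR's test). Card9, which links SYK to NF-κB, was called lower, at 24.3 ± 4.74 CPM in MAMs and 52.8 ± 5.22 CPM in RAMs (log2 fold change -1.12). Ptpn6 had a log2 fold change of -0.02 and an adjusted p of 0.913. The 3 largest changes among the called genes were in Blnk (5.99), Lat2 (4.99) and Nfatc2 (4.52), an adaptor, a membrane adaptor and a transcription factor, all higher in MAMs. Blnk was at 111 CPM in MAMs and 1.74 CPM in RAMs.

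Genes with the same C-type lectin fold outside the Clec symbols numbered 54, of which 20 were tested. 16 passed an adjusted p under 0.05 (56.2% of all genes did), and 14 were called, 9 higher and 5 lower (30.3% of all genes were called). Their median log2 fold change was 0.42. The 3 largest were Layn (7.13), a hyaluronan receptor at 4.63 CPM in MAMs, Selp (6.43), the adhesion molecule P-selectin at 14.7 CPM in MAMs, and Ly75 (-5.88), the endocytic receptor DEC-205. Ly75 was at 7.69 CPM in MAMs and 453 CPM in RAMs. Mrc1, the lectin on whose protein both groups were sorted, was at 1412 CPM in MAMs and 2625 CPM in RAMs, and this value is part of the gate.

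14 members did not reach a mean of 1 FPKM in either group and were not tested. Clec18a, Clec2h and Clec4f had 0 counts in all 10 libraries, which allows a level of up to 3 counts a library, or 0.0431 to 0.0671 CPM. Clec4f is a marker of liver macrophages. Clec2e, Clec2f, Clec3b and Clec4g had counts in 1 library each, from 12 to 39. Clec12b had 34 counts over the MAM libraries and 1 over the RAM libraries, and Clec12b and Clec4g were listed at an FPKM of 0 throughout. Clec14a, an endothelial gene, was at 0 in 4 MAM libraries and had 33 counts in the other, against 0 to 58 counts in RAMs. Clec2l, Clec4a4, Clec4b2 and Clec11a had totals of 78, 252, 176 and 68 counts in MAMs and 365, 283, 30 and 46 in RAMs. Clec4a4 shares 15.7% of its 50-base stretches with Clec4a2. Clec3a, a cartilage gene, had 0 counts in every MAM library and 37, 56, 4, 1 and 20 counts in RAMs 1 to 5. It was the only one of the 14 called in a fit without the filter, as lower (adjusted p = 0.0052 by edgeR's test).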

How the data were processed

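Total RNA of 5 MAM and 5 RAM samples was amplified and made into libraries with the Ovation RNA-Seq System V2 and sequenced in pairs. Per the submitters' processing notes and the study's methods, the authors aligned reads to mm10 with TopHat2 2.0.13 and deposited read counts per gene, made with HTSeq 0.6.1 from uniquely mapped reads over RefGene models, together with FPKM values from Cufflinks 2.2.1. Counted lines on no gene were left out. They made up 54.6% to 58.3% of a MAM library and 62.2% to 64.1% of a RAM library. The groups did not overlap in this share, and its part in the differences was not tested. Of the 24538 genes in the count files, 24460 also had FPKM values and could enter the fit. The count of genes tested was 11571, those with a mean of at least 1 FPKM in either group.

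Counts were tested with edgeR 4.0.16 (R 4.3.3; TMM scaling, quasi-likelihood test, Benjamini-Hochberg adjustment over all genes tested), with group as the only term, after a check on simulated data. CPM values are on the TMM scale unless library totals are named, and "called" means an adjusted p under 0.05 and a 2-fold difference. DESeq2 1.42.0, limma 3.58.1 on log2(FPKM + 1) and log2(FPKM + 0.1), other scalings and filters, a replicate block and leaving out each library were alternatives. Named genes were all members, those called and the 3 highest in each group in full, and the 3 largest called changes of each other list with 5 signalling genes. The members, gene lists and marker lists were chosen with earlier results of these data known. Gene positions and shared 50-base stretches came from GENCODE on GRCm38, and promoters from RefSeq on GRCm38.p6. No 2 libraries were identical. Counting error is small for members above 100 counts and large for the rest. Protein sequences were not used here.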

Additional observations from a re-analysis of the deposited data

Results flagged for a closer look

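In 43 groups of 5 libraries with enough counts, 5 had 1 library far from the other 4. For normally distributed values, chance alone sets apart about 1 in 20 groups, a rate that need not hold for low, skewed counts. Clec2g was at 3.03 CPM in RAM replicate 2 (202 counts) against 0.384 to 0.565 CPM in the other RAM libraries, and the deposited FPKM did not show it. In the same library, Clec2l was at 3.68 CPM (245 counts) against 0.313 to 1.02 CPM. Clec4a2 was at 50.5 CPM in RAM replicate 1 (2949 counts) against 29.9 to 34.7 CPM, which was also seen in FPKM, at 18.5 against 10.9 to 11.9. Clec4b2 was at 3.13 CPM in MAM replicate 2 (167 counts) against 0 to 0.183 CPM in the other MAM libraries. Its deposited FPKM was only 0.0339 in MAM replicate 2 and 0 in the other MAM libraries. Clec11a was at 0.905 CPM in MAM replicate 4 (50 counts) against 0 to 0.244 CPM. In FPKM it was less apart, at 0.251 against 0 to 0.206.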

How the results depend on the processing

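Of 342 values for the 18 tested members under the alternatives, 327 kept their direction and side of the adjusted p limit of 0.05. The 2-fold limit was not part of this count. Of the rest, 12 lost significance. Among these were Clec4a2, Clec4a3, Clec4b1, Clec4n and Clec7a in the test against a 2-fold change, which is a stricter test. The other 3 changed sign, all 3 in Clec5a, which did not pass the test in any fit. Clec5a had a log2 fold change of -0.10 with upper-quartile normalization and ran from -0.046 to 0.17 when 1 library was left out. The count called higher was 7 in every alternative that was run, and the count called lower was 4 or 5. It was 5 with upper-quartile normalization and without MAM replicate 1, where Clec7a was added, and with no filter on low values, where Clec3a was added. Members past an adjusted p of 0.05 ranged from 11 in the test against a 2-fold change to 17 with no filter. Upper-quartile normalization shifted the median of all genes to -0.18, and that of the members to 0.19. On log2(FPKM + 1), low genes had smaller changes, 2.26 for Clec10a and -3.52 for Clec1b. Same-numbered MAM and RAM libraries did not deviate together over all genes tested (correlations from -0.04 to 0.03). This check cannot exclude a pairing that affects few genes. With a replicate block, 7 members were called higher and 4 lower, 16 passed the adjusted p, and the median was 0.36. Counts limit the members under 1 CPM, where few reads decide a fold.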

Other observations

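Next to the chromosome 6 row that ends in Clec7a lie Olr1, Tmem52b and Gabarapl1, which were chosen after the values were seen. Olr1, which encodes the C-type lectin LOX-1, a receptor for oxidized LDL, was at 267 ± 110 CPM in MAMs and 1245 ± 57.5 CPM in RAMs (SD, n = 5 each). Its log2 fold change was -2.22 (adjusted p = 2.8e-07 by edgeR's test). Tmem52b was at 0.143 CPM in MAMs and 3.75 CPM in RAMs. Gabarapl1, a gene of autophagy, was at 60.6 ± 9.15 CPM in MAMs and 62.0 ± 13.1 CPM in RAMs.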
